A study of Homo sapiens with 6 samples.

Results

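The genes of the IκB kinase (IKK) and TAK1 kinase complexes were taken from the RNA-seq table as the 10 rows with the symbols CHUK, IKBKB, IKBKG, IKBKE, TBK1, MAP3K7, TAB1, TAB2, TAB3 and MAP3K14, out of 30267 genes listed. All 10 passed the filter on low values. SW839, a human renal cell carcinoma line, was the source of the RNA, with 3 libraries of cells carrying an RNF25 hairpin (shRNF25) and 3 libraries of cells carrying the pLKO control vector (shControl). Both groups carried a lentiviral vector and, by the study's methods, were selected with puromycin, and the design text calls the libraries biological triplicates. A single hairpin name was used, so the groups differ by that hairpin as well as by RNF25 level. Since the shRNF25 plasmid is named in the treatment field of the controls too, the groups were taken from the titles. The question was how the transcripts of these kinases and adaptors, which lie upstream of NF-κB, behaved when RNF25 was reduced.

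In the canonical NF-κB pathway, ubiquitin chains built at an activated receptor are read by TAB2 and TAB3, which bring in the kinase TAK1. TAK1 then activates the IKK complex, which marks IκB proteins for destruction and frees NF-κB. In the non-canonical pathway the NF-κB-inducing kinase activates IKKα instead, and the IKK-related kinases TBK1 and IKKε act mainly on interferon regulatory factors. All of these proteins are controlled largely by phosphorylation and ubiquitination, neither of which RNA-seq measures.

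Reads assigned to genes numbered 18647460 to 19943154 in a library. The shControl libraries were more variable than the shRNF25 libraries, with a median SD over tested genes of 0.26 against 0.10 on the log2 scale. The shControl replicate 1 stood apart, with 12.1% of its reads on mitochondrially encoded genes against 3.58% to 4.44% in the other 5 libraries. The 3 control libraries carry names of different forms and no batch is labelled, so group and batch, if they coincide, cannot be told apart. Of the renal markers, KRT8, KRT18, EPCAM and PAX8 were present, whereas CA9 did not exceed 50.7 in any library and PAX2 and CDH16 were not among the listed genes. The renal list (7 of 9 listed) summed to 44618 to 55048 in shControl and 58156 to 62338 in shRNF25, mostly KRT8 and KRT18. Its members went both ways, since EPCAM (4797 to 5912 in shControl, 4205 to 4519 in shRNF25) and PAX8 (118 to 140.3 and 76.7 to 109.6) were lower without overlap, and VIM (203 to 448 and 804 to 882) was higher without overlap. The leukocyte markers (4 of 5 listed) summed to at most 25.7 normalized counts in a library, with CD3E at 3 reads or fewer throughout. The fibroblast markers summed to 1106 to 1290 in shControl and 864 to 1011 in shRNF25, mostly COL1A1, with DCN at 3 reads or fewer. The endothelial markers summed to 460 to 678 in shControl and 413 to 557 in shRNF25, mostly PECAM1. The groups overlapped for PECAM1, at 350 to 466 in shControl and 399 to 549 in shRNF25. CDH5 was lower without overlap, at 73.0 to 199 in shControl and 3.64 to 8.31 in shRNF25. So was VWF, at 7.18 or more in shControl and 3.64 to 6.67 in shRNF25. The part of these marker differences in the results was not tested, and in bulk RNA fewer cells with a transcript cannot be told apart from less of it per cell. RNF25, the target of the hairpin, had normalized counts of 694, 534 and 536 in shControl and 214, 246 and 265 in shRNF25 (log2 fold change -1.27 ± 0.15, SE, adjusted p = 0.000585). STK36 overlaps 11.2% of the exon bases of RNF25 on the opposite strand and had normalized counts of 678 to 1204.

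IKBKE was the member that changed most. Its transcript fell to 49.4% of the control mean in shRNF25, while that of IKBKB rose to 135%. The other 8 members did not pass the adjusted p threshold of 0.05 in limma, which was fitted over all 16554 genes that passed the filter. Thus 2 of 10 members were called, next to a background of 21.3% of all tested genes, so that the share of called members was close to that of genes in general. With the added criterion of a fold change of at least 1.5, IKBKE alone remained, or 1 of 10 against 15.7% of tested genes. The groups did not overlap for 4 of 10 members (IKBKE, IKBKB, TBK1 and TAB3), against 42.5% of tested genes. A log2 fold change below 0 was found for 5 of the 10, against 51.2% of tested genes. All log2 fold changes are shRNF25 minus shControl on the log2(normalized count + 1) scale.

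**Figure D1:**
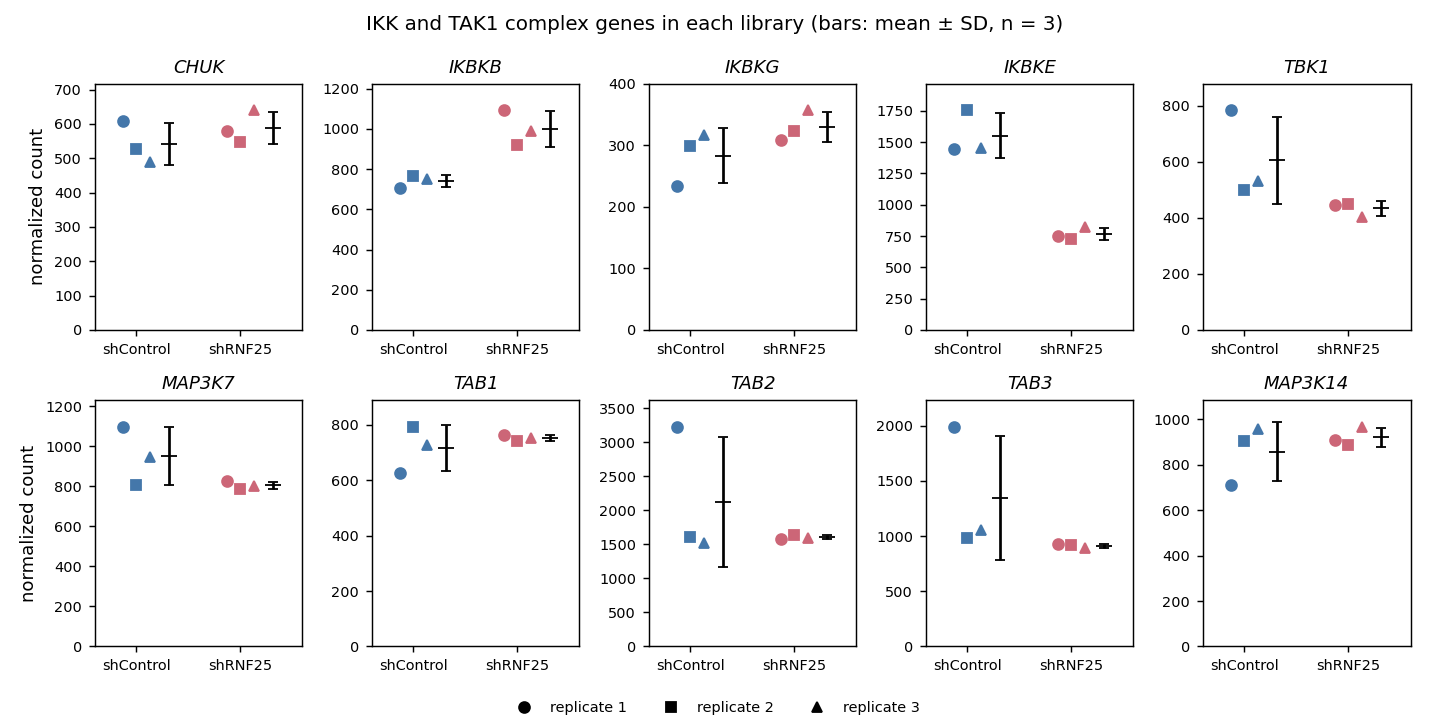
Normalized count (y axis, from 0) of each of the 10 genes in the 3 shControl (blue) and 3 shRNF25 (red) libraries, with symbols for the replicate number and black bars for mean ± SD. The IKBKE points of shRNF25 (725 to 823) lie far below those of shControl (1447 to 1757), the IKBKB points lie above, and shControl replicate 1 stands alone at the top for TAB2, TAB3 and TBK1.

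**Figure D2:**
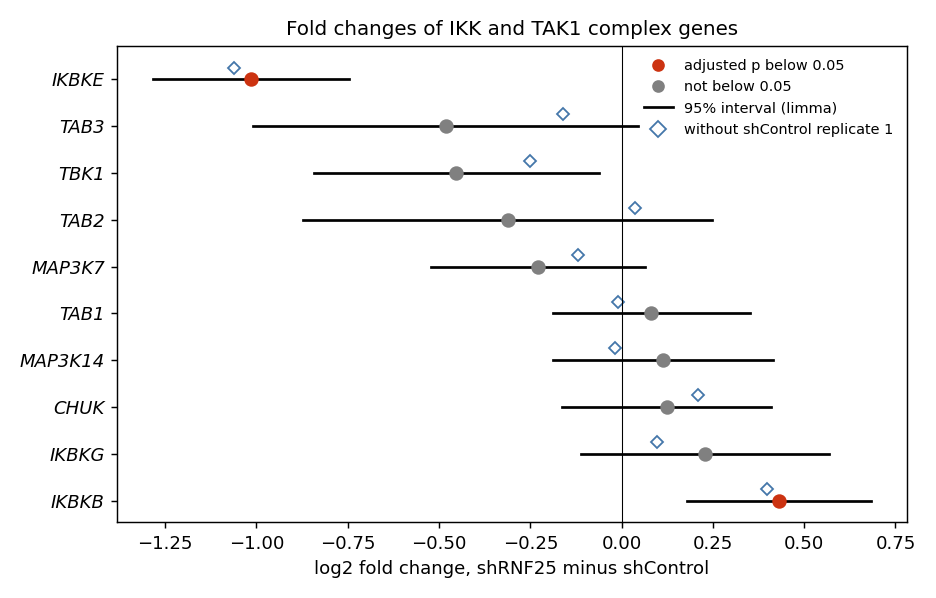
Log2 fold change of each gene (x axis, shRNF25 minus shControl) with its 95% interval from limma, red where the adjusted p was below 0.05 and grey otherwise. Open diamonds give the value without shControl replicate 1. This value lies nearer to 0 for TAB2, TAB3, TBK1, MAP3K7, IKBKG, TAB1 and MAP3K14. It lies farther from 0 for CHUK and barely moves for IKBKE and IKBKB.

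The IKK-related kinases are IKKε, encoded by IKBKE, and TBK1. They are close relatives with overlapping substrates, but TBK1 is made in most cell types, whereas IKKε is more restricted and can be induced by inflammatory signals. IKBKE had normalized counts of 1447, 1757 and 1453 in shControl and of 751, 725 and 823 in shRNF25. Every shRNF25 library was thus well below every shControl library, and the ranges were far apart. The log2 fold change was -1.01 ± 0.12 (SE, adjusted p = 0.000592 from limma), with a 95% interval of 0.411 to 0.597 for the fold change. Without shControl replicate 1 it was -1.06. The exact permutation test of the 6 log2 values, run two-sided, gave p = 0.1, which is as low as 3 libraries against 3 can go.

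TBK1 had normalized counts of 785, 501 and 530 in shControl and of 447, 449 and 404 in shRNF25. The groups did not overlap, but the control values were spread widely because replicate 1 was 1.52 times the geometric mean of the other 2 controls. The antisense gene AC135279.3 overlaps 14.7% of its exon bases and reached at most 5.54 normalized counts. The log2 fold change of -0.45 ± 0.17 (SE) did not pass (adjusted p = 0.0953), and its 95% interval ran from -0.84 to -0.06. Without shControl replicate 1 the log2 fold change was -0.25 (adjusted p = 0.0637), which moves the value by more than 1.5 times. The ratio of IKBKE to TBK1 within a library uses no scaling between libraries. On the log2 scale it was 0.88, 1.81 and 1.45 in shControl and 0.75, 0.69 and 1.02 in shRNF25. The shControl replicate 1 fell inside the range of the knockdown libraries, and the difference of -0.56 between the means was not separated from the spread (two-sided exact permutation p = 0.2, adjusted p = 0.4 over the 6 ratios). Thus a larger fall of IKBKE than of TBK1 was not established in these libraries.

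The sequences just before the RefSeq start sites are shown for these paralogs because IKBKE was called and TBK1 was not. A difference between their falls was not established, so the sequences are a description only. Both are the 250 bases upstream of the RefSeq start on the plus strand of GRCh38.p14, with CG dinucleotides in capitals. They lie at chr1:206470226-206470475 for IKBKE and chr12:64451870-64452119 for TBK1. In the GENCODE annotation TBK1 starts at 64451880, inside its window, so most of that window lies within the annotated gene. IKBKE starts there at 206470476, directly after its window. The CG counts of these windows are thus not from like positions relative to the GENCODE genes.
IKBKE: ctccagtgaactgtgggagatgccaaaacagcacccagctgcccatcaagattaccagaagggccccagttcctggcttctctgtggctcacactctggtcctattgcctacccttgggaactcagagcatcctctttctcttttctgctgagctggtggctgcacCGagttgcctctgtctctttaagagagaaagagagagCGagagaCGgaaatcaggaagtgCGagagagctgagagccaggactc
TBK1: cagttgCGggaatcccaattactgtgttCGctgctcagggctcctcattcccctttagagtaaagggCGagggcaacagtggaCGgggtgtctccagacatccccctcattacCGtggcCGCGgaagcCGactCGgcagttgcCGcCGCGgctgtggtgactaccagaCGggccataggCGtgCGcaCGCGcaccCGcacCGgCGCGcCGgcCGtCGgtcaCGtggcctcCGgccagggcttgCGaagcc
The window of IKBKE held 4 CG dinucleotides and that of TBK1 held 27, where the median over 35116 such windows was 11 and 93.9% held at least 1. Among the 9 members with an entry (13 windows, since IKBKG and TAB2 have several), the other 8 each had a window with 15 to 34 CG dinucleotides, and 2 of the 4 IKBKG windows held 4 and 5. The κB consensus, the STAT letters TTCNNNGAA and the AP-1 letters TGANTCA were searched on both strands. The κB consensus was found in 1 of the 13 windows, upstream of TAB2, where 2 overlapping matches start 102 and 101 bases before the start site, and it occurs in 6.88% of all windows. The AP-1 letters were found in 1 window of IKBKG (6.57% of all windows) and the STAT letters in 0 of the 13 (6.57% of all windows). A match is a description of letters, and no match says only that they are not in this window. IKBKB had no entry.

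The canonical IKK complex is built from the catalytic kinases IKKα (CHUK) and IKKβ (IKBKB) and the regulatory subunit NEMO (IKBKG), which binds ubiquitin chains. IKKβ is the main IκB kinase, and IKKα also serves the non-canonical branch. IKBKB had normalized counts of 707, 764 and 749 in shControl and of 1094, 919 and 987 in shRNF25. All 3 knockdown libraries were above all 3 controls, and the controls agreed closely (740.3 ± 29.4, SD, n = 3). The log2 fold change was 0.43 ± 0.11 (SE, adjusted p = 0.0244 from limma), or 1.35-fold, with a 95% interval of 0.18 to 0.68 for the log2 value. IKBKB kept this direction under all 16 alternatives and an adjusted p below 0.05 under 12 of them. The call was lost under 4, among them each fit that left out a knockdown library. Without shRNF25 replicate 1, 2 and 3 the limma adjusted p was 0.137, 0.0653 and 0.106, with log2 fold changes of 0.36, 0.49 and 0.44. The share of all tested genes called in these fits was 9.87%, 10.4% and 10.3%, against 21.3% with all libraries.

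CHUK lay between 490 and 608 in shControl and between 549 and 641 in shRNF25, and the groups overlapped. Its log2 fold change was 0.12 ± 0.13 (SE, adjusted p = 0.523), with a 95% interval from -0.16 to 0.41. It was 0.21 without shControl replicate 1, 0.05 without shControl replicate 3 and 0.06 without shRNF25 replicate 3. The log2 ratio of CHUK to IKBKB was -0.22, -0.53 and -0.61 in shControl and -0.92, -0.74 and -0.62 in shRNF25. The groups did not overlap, but shControl replicate 3 and shRNF25 replicate 3 nearly met, and the mean difference of -0.31 shrank to -0.19 without shControl replicate 1 (two-sided exact permutation p = 0.1, the lowest possible, adjusted p = 0.3 over the 6 ratios).

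IKBKG lay between 233 and 317 in shControl and between 309 and 357 in shRNF25. The log2 fold change was 0.23 ± 0.15 (SE, adjusted p = 0.309), and the ranges overlapped. It was 0.10 without shControl replicate 1. The level of IKBKG is uncertain. Of the 50-base words in its longest coding transcript, 45.5% also occur in transcripts of IKBKGP1, a pseudogene copy that was counted with 2 to 9 reads per library, and how reads matching both were handled is not given in the sources used here. The log2 ratio of IKBKG to CHUK averaged -0.94 in shControl and -0.83 in shRNF25, with overlapping libraries (two-sided exact permutation p = 0.9).

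TAK1 is encoded by MAP3K7, and TAB1 is the adaptor that activates it by direct binding. MAP3K7 had normalized counts of 1099, 807 and 945 in shControl and of 825, 786 and 803 in shRNF25. The knockdown libraries lay near the lowest control, and the log2 fold change of -0.23 ± 0.13 (SE) did not pass (adjusted p = 0.240, 95% interval -0.52 to 0.06) and was -0.12 without shControl replicate 1. TAB1 lay between 627 and 793 in shControl and between 742 and 764 in shRNF25, with a log2 fold change of 0.08 ± 0.12 (SE, adjusted p = 0.663) that became -0.01 without shControl replicate 1. The log2 ratio of TAB1 to MAP3K7 was -0.81, -0.03 and -0.38 in shControl and between -0.11 and -0.08 in shRNF25, so that the knockdown libraries fell inside the control range (two-sided exact permutation p = 0.4).

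TAB2 and TAB3 are related adaptors with a zinc finger that binds lysine-63-linked ubiquitin chains. TAB2 had normalized counts of 3233, 1616 and 1522 in shControl and of 1585, 1637 and 1600.4 in shRNF25. TAB3 had 1993, 986 and 1056 in shControl and 927, 922 and 891 in shRNF25. In both genes shControl replicate 1 stood far above all other libraries, at 2.06 times the geometric mean of the other controls for TAB2 and 1.95 times for TAB3. The groups overlapped for TAB2 and did not for TAB3. These deviations of replicate 1 lay at the 98.0th and 97.4th percentile of all tested genes, of which 11.1% were at least 1.5-fold higher in that library. The log2 fold change of TAB2 was -0.31 ± 0.25 (SE, adjusted p = 0.403) with all libraries and 0.04 without shControl replicate 1. That of TAB3 was -0.48 ± 0.23 (SE, adjusted p = 0.176) and -0.16 (adjusted p = 0.131) in the same fits.

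TAB2 and TAB3 deviated together in replicate 1, and their ratio varied little. The log2 ratio of TAB2 to TAB3 was 0.70, 0.71 and 0.53 in shControl and 0.77, 0.83 and 0.84 in shRNF25. The groups did not overlap, and the mean difference of 0.17 ± 0.06 (SE) became 0.20 without shControl replicate 1, but the exact permutation test of 3 against 3 cannot fall below p = 0.1 (adjusted p = 0.3 over the 6 ratios). The longest coding transcripts of the paralogs share 0 of their 50-base words.

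MAP3K14 encodes the NF-κB-inducing kinase, which is kept low in resting cells by degradation of the protein and starts the non-canonical pathway when it accumulates. It lay between 710 and 956 in shControl, with replicate 1 lowest, and between 886 and 968 in shRNF25. The log2 fold change of 0.11 ± 0.13 (SE) did not pass (adjusted p = 0.580, 95% interval -0.19 to 0.41) and was -0.02 without shControl replicate 1. MAP3K14-AS1, an antisense gene covering 12.3% of its exon bases, had 157 to 194 in shControl and 125 to 138 in shRNF25 without overlap, and did not pass with all libraries (log2 fold change -0.41, adjusted p = 0.0745) but did so without shControl replicate 1 (adjusted p = 0.0177). The log2 ratio of MAP3K14 to CHUK averaged 0.66 in shControl and 0.65 in shRNF25.

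**Figure D3:**
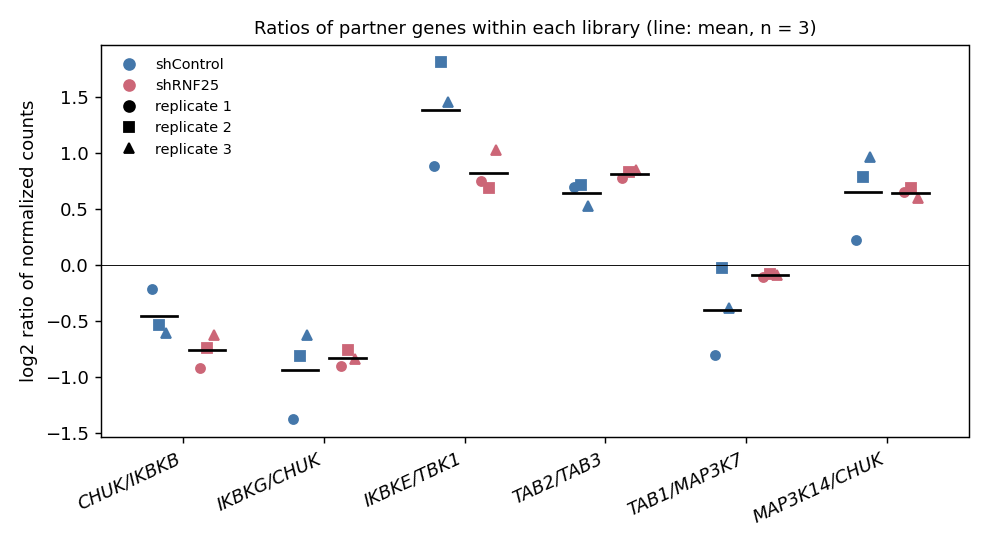
Log2 ratio of the normalized counts of 6 pairs of partner genes in each library (y axis), shControl in blue and shRNF25 in red, with a line for the mean of 3 libraries. The groups are separated for CHUK/IKBKB and TAB2/TAB3 and overlap for the other 4 ratios.

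The variation between libraries was smaller in shRNF25 than in shControl for 9 of the 10 members, compared with 83.3% of tested genes. The exception was IKBKB, with a coefficient of variation of 3.98% in shControl and 8.84% in shRNF25. In shControl the coefficient of variation was 45.3% for TAB2 and 41.8% for TAB3, and in shRNF25 it was 1.69% and 2.10%. The shControl replicate 1 was at least 1.5-fold away from the mean of the other controls on the log2 scale for 3 members, TAB2, TAB3 and TBK1, or 30% of the members against 23.8% of tested genes.

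To set levels of different genes side by side, normalized counts were divided by the summed exon length of each gene in GENCODE 29. On this scale IKBKE was the highest member in shControl, at 409 ± 46.7 per kb (SD, n = 3), followed by TAB2 at 353 ± 160.1, with overlapping ranges. Next came TAB1 at 160.5 ± 18.8, MAP3K14 at 148 ± 22.6, MAP3K7 at 132 ± 20.2, TBK1 at 127 ± 32.8, TAB3 at 106 ± 44.2, IKBKG at 80.3 ± 12.6 and CHUK at 78.2 ± 8.70, and each of these overlapped its neighbour. The range of TAB1 was apart from that of TAB2. IKBKB was lowest at 65.9 ± 2.62, with its range apart from that of CHUK. In shRNF25 TAB2 was first, at 267 ± 4.51, and IKBKE second, at 202 ± 13.3, without overlap. IKBKB moved from the last place to the eighth, at 89.0 ± 7.87, where its range overlapped those of TBK1 and CHUK. TAB3 was last at 71.8 ± 1.51, apart from CHUK. Without shControl replicate 1, the control level of IKBKE was 423 and that of TAB2 was 261, in the same order. The control ranges of these genes overlapped only through replicate 1 of TAB2, at 538 per kb. TAB3 and IKBKG exchanged places without that library, at 80.3 and 87.4. The summed exon length holds all annotated isoforms, and those used in SW839 were not resolved.

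**Figure D4:**
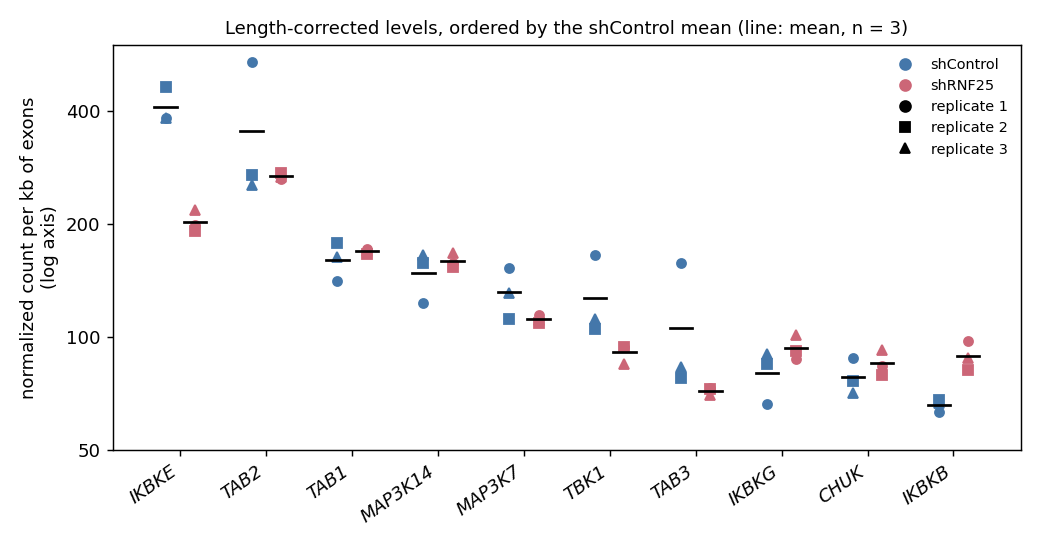
Normalized count per kb of exons (log axis) of each gene in each library, ordered by the shControl mean, with lines for the mean of 3 libraries. IKBKE is the highest in shControl (409) and drops to 202 in shRNF25, below TAB2, while IKBKB rises from 65.9 to 89.0.

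In GENCODE 29 on GRCh38, IKBKE lies on chromosome 1 from 206470476 to 206496889 on the plus strand, and IKBKB on chromosome 8 from 42271302 to 42332653 on the plus strand. TBK1 lies on chromosome 12 from 64451880 to 64502108 on the plus strand, TAB2 on chromosome 6 from 149218641 to 149411613 on the plus strand, and TAB3 on chromosome X from 30827442 to 30975084 on the minus strand. IKBKE overlaps the antisense gene C1orf147 over 4.12% of its exon bases, and C1orf147 had normalized counts of 9.53 to 25.7, far below those of IKBKE.

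The surrounding pathway was described with 87 other genes in 8 lists, all of which were tested. Of these, 18 were called lower (background 10.8%) and 3 higher (background 10.5%), or 24.1% in either direction against 21.3% of all tested genes. The share called in either direction was below this background in some lists. It was 18.2% for the ubiquitin ligases, 14.3% for the other MAP3K genes and 11.1% for the MAP kinase branch. The remaining lists had 23.1% to 41.7%. The median log2 fold change was -0.16 over the 87 genes and -0.01 over all tested genes. Leaving out shControl replicate 1 gave 29 lower and 5 higher genes (background 33.8% in either direction), and leaving out shRNF25 replicate 1, 2 or 3 gave 9, 9 and 8 lower and 0, 1 and 1 higher genes, next to backgrounds of 9.87%, 10.4% and 10.3% in either direction. The lists and members were compiled with earlier results of these libraries known, so the direction of the lists is not independent evidence.

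Among the 13 receptor-proximal adaptors, 2 were lower and 1 was higher. CD40 is a receptor that can drive the non-canonical branch, among others, in response to CD40 ligand. It averaged 659.8 ± 135 in shControl and 278 ± 18.9 in shRNF25 (SD, n = 3). The log2 fold change was -1.23 (adjusted p = 0.000965). TRAF5, an adaptor recruited to such receptors, went from 331 ± 66.2 to 153 ± 18.5 (SD, n = 3; log2 fold change -1.10, adjusted p = 0.00300). RIPK1, a kinase scaffold to which TAB2 and NEMO are recruited through ubiquitin chains, rose by 0.58 on the log2 scale (adjusted p = 0.00729) and was chosen after its value was seen. It did not pass without shRNF25 replicate 1 or 3 (adjusted p = 0.0514 and 0.0581).

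Of the 11 ubiquitin ligases and conjugating enzymes, 2 were lower and 0 were higher. BIRC3 (cIAP2), which adds ubiquitin to RIPK1 and to the NF-κB-inducing kinase, had a log2 fold change of -1.18 (adjusted p = 0.000479). Of the 11 deubiquitinases, phosphatases and their partners, 3 were lower and 0 were higher. TNFAIP3 (A20), a brake on TAK1 and IKK activation that is itself an NF-κB target, averaged 3786 ± 383 in shControl and 832 ± 102 in shRNF25 (SD, n = 3; log2 fold change -2.19, adjusted p = 1.64e-05). TNIP1, which binds A20 and ubiquitin chains, had a log2 fold change of -1.90 (adjusted p = 1.11e-05). These falls were larger than that of any member.

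Of the 6 chaperones and scaffolds of the IKK complexes, 1 was lower and 1 was higher. They were CDC37, a co-chaperone of kinases (log2 fold change -0.39, adjusted p = 0.0198), and TNIK, a TRAF2-binding kinase (log2 fold change 0.51, adjusted p = 0.0253), both chosen after their values were seen. Neither passed when any knockdown library was left out (adjusted p = 0.0754 to 0.123 for CDC37 and 0.0914 to 0.113 for TNIK), nor did TNIK without shControl replicate 2 (adjusted p = 0.0553). Quantile normalization brought CDC37 to -0.17 (adjusted p = 0.225). Of the 11 scaffolds and sensors upstream of TBK1 and IKKε, 3 were lower and 0 were higher. TICAM1 (TRIF), the adaptor that links Toll-like receptor 3 to TBK1, had a log2 fold change of -0.70 (adjusted p = 0.00386).

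Of the 12 NF-κB, IκB and IRF proteins, 5 were lower and 0 were higher, or 41.7% against 21.3% of all tested genes. Their median log2 fold change was -0.40. NFKBIA (IκBα), the main IKK substrate and an NF-κB target gene, averaged 5994 ± 590.4 in shControl and 2704 ± 293 in shRNF25 (SD, n = 3; log2 fold change -1.15, adjusted p = 0.000328). REL, an NF-κB subunit, had a log2 fold change of -0.85 (adjusted p = 0.0193), which did not pass when any knockdown library was left out (adjusted p = 0.0836, 0.0805 and 0.0537 without shRNF25 replicate 1, 2 and 3).

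Of the 9 genes of the MAP kinase branch below TAK1, 0 were lower and 1 was higher. MAP2K6, a kinase that activates p38, went from 98.5 ± 9.81 to 162 ± 18.2 (SD, n = 3; log2 fold change 0.71, adjusted p = 0.0139). It did not pass without shRNF25 replicate 1 or 2 (adjusted p = 0.0845 and 0.0681). Of the 14 other MAP3K genes, 2 were lower and 0 were higher. MAP3K8 (TPL2), a kinase that is released by IKK and activates the ERK branch, averaged 168 ± 13.9 in shControl and 72.2 ± 3.96 in shRNF25 (SD, n = 3; log2 fold change -1.21, adjusted p = 0.000864).

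**Figure D5:**
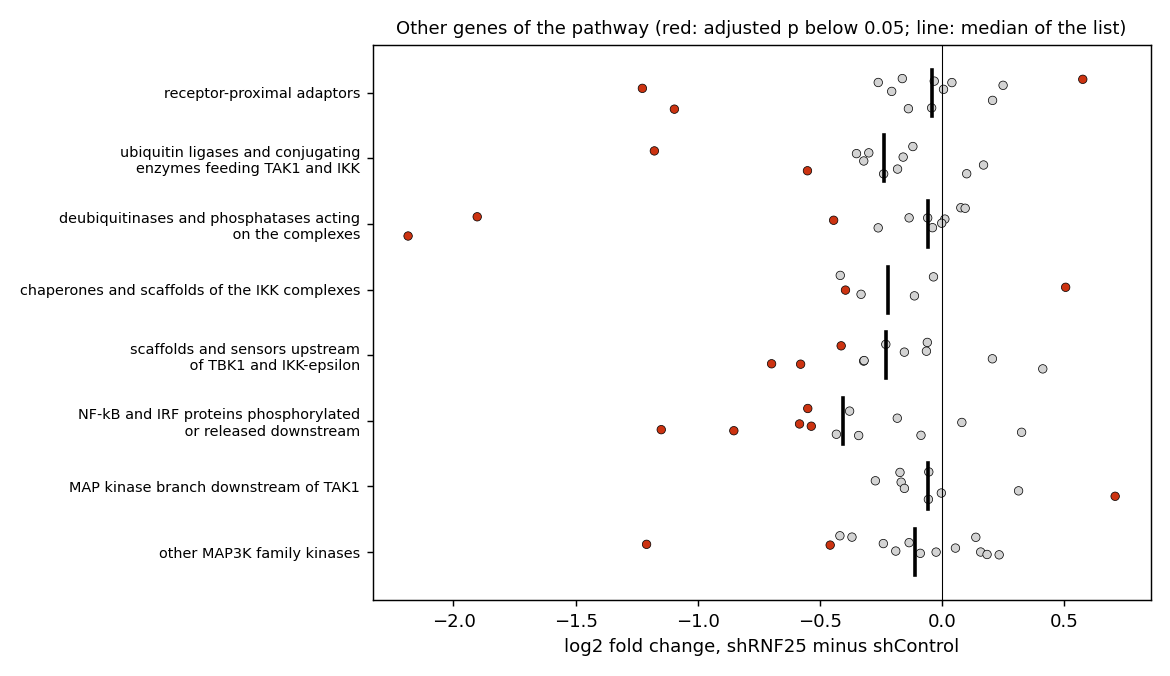
Log2 fold change (x axis, shRNF25 minus shControl) of each of 87 pathway genes, grouped by list, with red points where the adjusted p was below 0.05 and a black line at the median of the list. The called genes lie mostly to the left, with TNFAIP3 (-2.19) and TNIP1 (-1.90) farthest, and RIPK1, TNIK and MAP2K6 to the right.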

How the data were processed

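Bulk RNA-seq of 6 SW839 libraries was analysed, grouped by title. The authors deposited normalized counts, a signal per gene in which all counts of a library share 1 size factor as divisor. The submitters' processing notes name fastp, HISAT2, HTSeq and GRCh38, and the paper's methods name rRNA depletion, a stranded kit and DESeq2. The annotation and the strand setting are not given in the sources used here. Whole reads came back for 100% of values (within 0.01 reads), and the size factors (0.905 to 1.10) equaled the median-of-ratios factors of the recovered reads.

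Values were used as log2(normalized count + 1), keeping genes with 10 or more in 3 or more libraries, and fitted with limma 3.58.1 (lmFit, eBayes with trend, R 4.3.3) with group as the only term and Benjamini-Hochberg adjustment. Adjusted p-values of genes come from limma unless another tool is named, and the SE of a gene is limma's moderated standard error. The SE of a ratio difference was computed from the variances of the ratios in both groups, without moderation. Ratios within libraries were compared by exact permutation (scipy 1.17.1). Scripts were tested on simulated data. The alternatives were other pseudocounts, filters and scalings, edgeR 4.0.16 and DESeq2 1.42.0 on the recovered reads, a replicate block, library weights by group, and leaving out each library.

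Of 16554 tested symbols, 96.3% matched a single GENCODE 29 gene. Named genes were the 10 members, RNF25, copies or overlapping genes (not all are reported here), and from each pathway list at most 3 genes past both criteria with the largest change. RIPK1, CDC37 and TNIK were named outside this rule. The members, lists and rules were chosen with earlier results of these data known.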

Additional observations from a re-analysis of the deposited data

How the results depend on the processing

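IKBKE was the single member called lower under all 16 alternatives, with a log2 fold change of -1.07 to -0.92 and an adjusted p of at most 0.00765. The number of members called higher was 0 with the replicate block (IKBKB, adjusted p = 0.0600) and 0 to 1 with 1 library left out. The log2 fold changes of TAB1 (-0.00984 to 0.16), TAB2 (-0.51 to 0.0355) and MAP3K14 (-0.0168 to 0.20) with 1 library left out changed sign when this was the first shControl library (-0.00984, 0.0355 and -0.0168). The cause was not tested. The 7 members other than IKBKE, IKBKB and TBK1 did not pass in any alternative, nor did TBK1, whose lowest adjusted p was 0.0564. Pathway genes called higher numbered 5 with quantile normalization, and with 1 library left out the pathway counts were 8 to 29 lower and 0 to 5 higher. Over all genes the counts were 860 to 2986 lower and 768 to 2612 higher with 1 library left out, the largest without shControl replicate 1, against 1785 and 1740 with all. edgeR called 1657 lower and 1869 higher genes, and DESeq2 2037 and 1838. RNF25 lay between -1.34 and -1.15 with 1 library left out. The same-numbered libraries deviated from their group means with correlations of -0.06, -0.09 and 0.05 across genes, so the numbers were not taken as pairs. The replicate block gave 1527 lower and 1557 higher genes, and no library correlated best with the library of its own number in the other group. The normalized counts of the members lay between 233 and 3233.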
